A study of Mus musculus with 12 samples.

Results

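The mRNAs of 10 genes that act in or respond to antigen receptor signalling were followed in mouse T cells given a STING agonist. The genes were chosen by name and family, with earlier results of these data known. They were the calcineurin-dependent factors Nfatc1, Nfatc2 and Nfatc3 and the zinc finger factors Egr1, Egr2 and Egr3. The others were the orphan nuclear receptors Nr4a1, Nr4a2 and Nr4a3 and the early surface marker Cd69. These members are 10 of the 38924 gene IDs counted, and each was among the 13811 genes that had enough reads to be tested. CD4+ T cells were isolated as naive cells from spleens of C57BL/6 mice aged 8 to 12 weeks, either WT or STINGgt/gt. The STINGgt/gt (Goldenticket) mice carry a missense allele of Tmem173 that leaves no functional STING, and the labels call them STING KO. CD3 and CD28 antibodies expanded the cells over 2 days and were then withdrawn for 1 day, so every group had been activated before the comparison began. The cells then received the solvent DMSO or a single dose of 10-carboxymethyl-9-acridanone (CMA), which binds and activates mouse STING, for 16 h according to the deposited design. Each of the 4 combinations was sequenced as 3 libraries. The study calls the 3 libraries biological replicates, but nothing says that they came from separate mice or cultures, so p-values measure the spread between these libraries, which may be technical.

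When the T cell receptor is engaged, calcium enters the cell and the phosphatase calcineurin strips phosphate from NFAT proteins, which then move into the nucleus and switch on cytokine genes. MAP kinase signals raise Egr1 to Egr3 within minutes to hours, and Egr2 and Egr3 are known for restraining later T cell responses. The NR4A receptors act without a required ligand, largely through their amount, and are used as readouts of recent receptor signals, while CD69 holds the lymph-node exit receptor S1PR1 inside the cell.

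Reads assigned to genes numbered 27414450 to 43784910 per library. Tmem173 stood at 183 to 190 normalized CPM in WT and 168 to 181 in STINGgt/gt T cells with DMSO, and a missense allele need not lower its mRNA, so these levels do not check the genotype labels. Normalized CPM are counts scaled to library sizes that edgeR's TMM method corrected for composition. The T cell marker genes summed to between 3270 and 3860 CPM in the 12 libraries. B cell markers summed to 743 to 928 CPM in WT libraries and 327 to 356 CPM in STINGgt/gt libraries, myeloid markers to 52.2 to 68.1 against 35.9 to 40.8 CPM, and markers of CD8 and natural killer cells to 68.2 to 79.5 against 54.2 to 65.2 CPM. No marker was at 0 in all libraries of a group, although the CD4+ cells had been sorted by flow cytometry. In bulk RNA, fewer cells of a type and less RNA per cell cannot be told apart. The study also reports that overnight CMA induced apoptosis in WT but not in STINGgt/gt T cells. The WT libraries with CMA may therefore hold RNA of dying cells or mainly of survivors, and the part of this in the values below was not tested.

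In WT T cells CMA lowered Nfatc1, Egr1 and Egr2 and raised the NR4A genes and Cd69, while Nfatc2 and Nfatc3 did not pass the test. Egr3 passed as lower at an adjusted p of 0.0451 (edgeR), a call lost in 14 of 22 alternative analyses. Egr2 fell most, by 2.23 on the log2 scale, Egr1 fell by 1.37 and Nfatc1 by 0.48, whereas Cd69 rose by 1.03, Nr4a2 by 0.85, Nr4a3 by 0.73 and Nr4a1 by 0.26. In total 4 members were higher and 4, with Egr3, were lower (Benjamini-Hochberg adjusted p under 0.05 across the 13811 genes, edgeR's quasi-likelihood model). Calls were common in this comparison: 70.4% of all genes tested passed, 33.0% higher and 37.4% lower, so 8 of 10 members is close to that background. The median log2 change was -0.0048 over the members and -0.04 over all genes tested. The CMA and DMSO libraries did not overlap for 8 members, against 71.1% of all genes. A change of at least 2-fold was reached by Egr1, Egr2 and Cd69, 1 higher and 2 lower, and by 17.0% of all genes. In STINGgt/gt T cells 2 members, Egr2 and Nr4a1, rose and none fell, where 1.32% of all genes passed (0.398% higher and 0.92% lower), and 0 members reached 2-fold, against 0.029% of all genes.

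**Figure D1:**
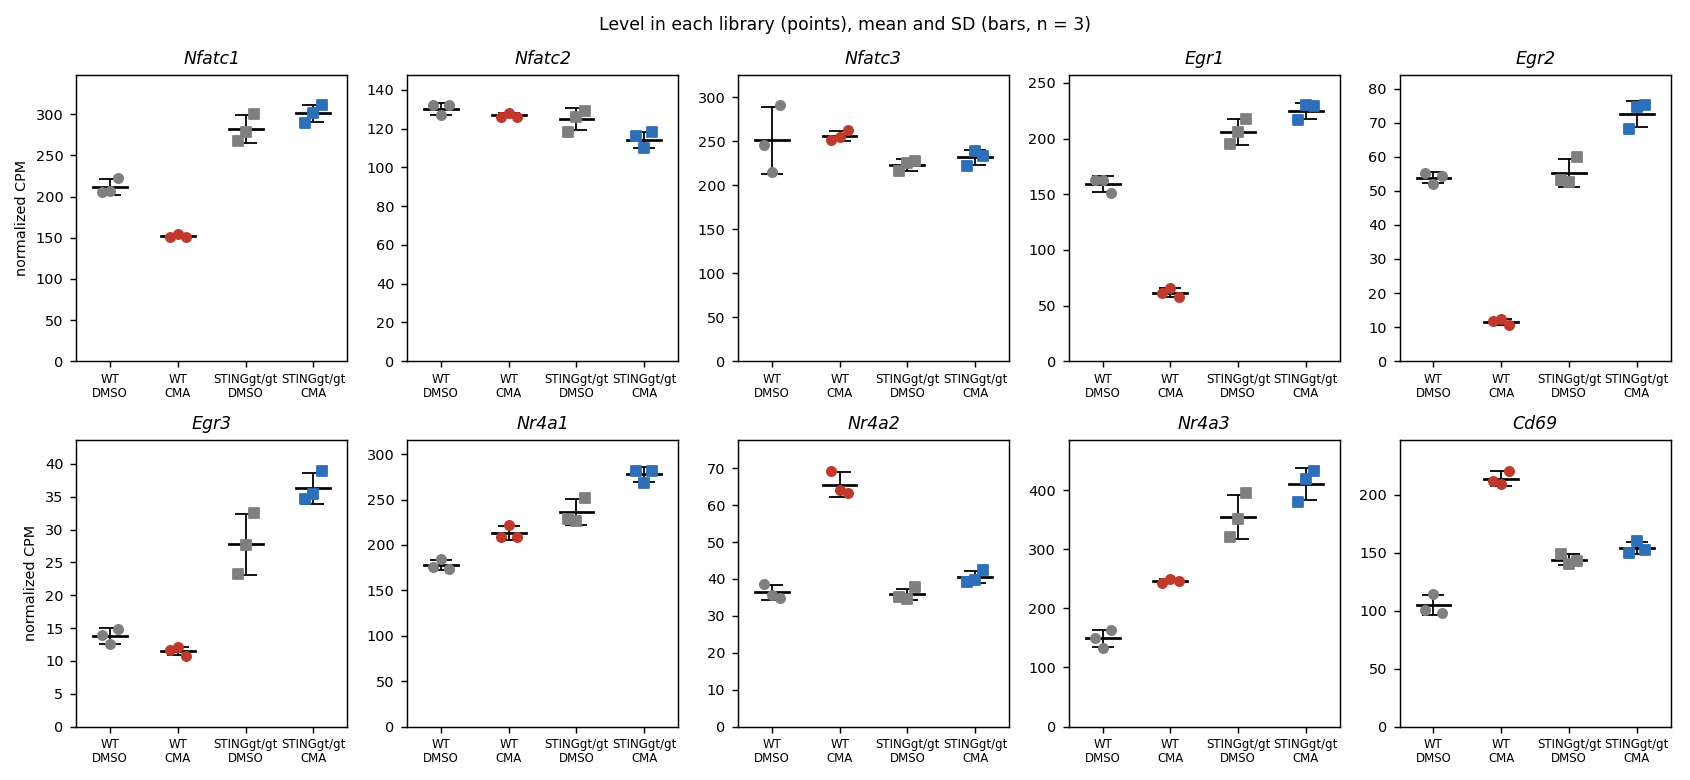
Normalized CPM of the 10 genes (vertical axes, starting at 0) in each of the 12 libraries, by genotype and treatment. Points are libraries, with the mean and SD of 3. Egr1 and Egr2 are lowest in the WT CMA libraries, Nr4a2 and Cd69 are highest there, and Nfatc1, Egr1, Egr3, Nr4a1 and Nr4a3 are higher in all STINGgt/gt libraries than in all WT libraries.

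**Figure D2:**
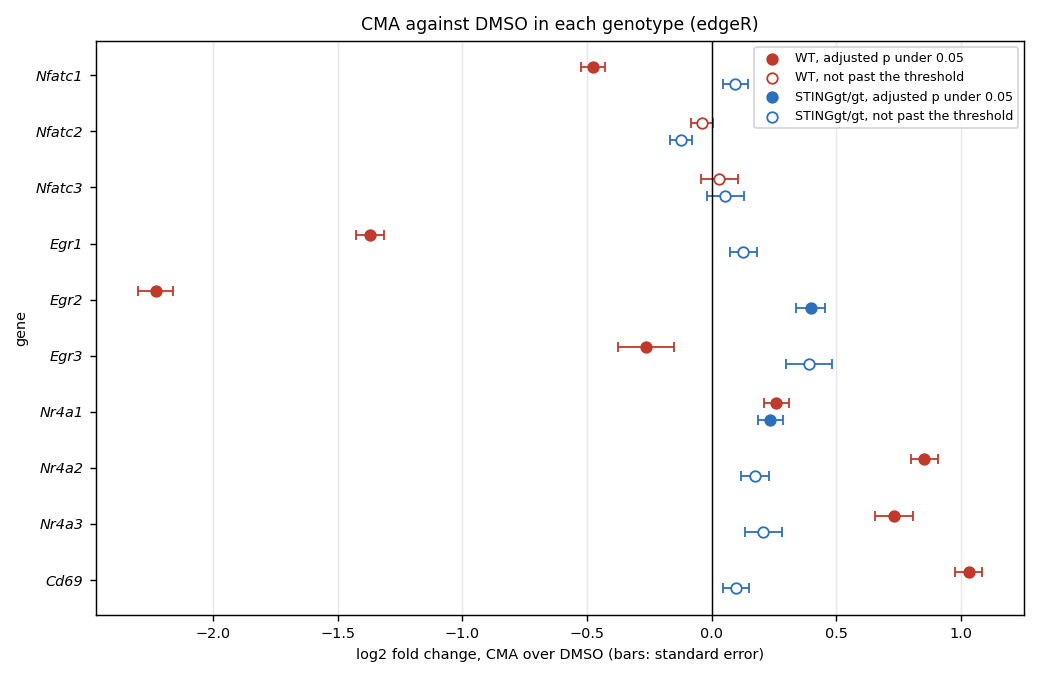
Log2 fold change of CMA over DMSO (horizontal axis) for each gene in WT and in STINGgt/gt T cells, from edgeR's model with bars for the standard error. Filled points passed an adjusted p of 0.05. The WT points run from -2.23 for Egr2 to 1.03 for Cd69, while the STINGgt/gt points lie between -0.13 and 0.40.

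Of Nfatc1, Nfatc2 and Nfatc3, only Nfatc1 passed the test with CMA in WT T cells. Nfatc1 (ENSMUSG00000033016, chromosome 18 of GRCm38, 80606205 to 80713071, minus strand) encodes NFAT2, whose short isoform is itself induced by receptor signals. In WT T cells it stood at 206, 207 and 223 normalized CPM with DMSO and at 151, 155 and 151 with CMA. All CMA libraries lay below all DMSO libraries. Its log2 fold change of -0.48 passed the threshold (standard error 0.0498, adjusted p = 2.70e-07, edgeR). STINGgt/gt T cells gave 268, 278 and 300 with DMSO and 290, 302 and 311 with CMA. These ranges overlapped, and the log2 fold change of 0.10 did not pass (95% interval -0.01 to 0.20, adjusted p = 0.439, edgeR). The CMA effect on Nfatc1 was lower in WT by 0.57 (95% interval of the difference -0.72 to -0.42, adjusted p = 3.05e-06, edgeR). Such a genotype difference in the response was found for 58.8% of all genes (27.2% higher and 31.6% lower in WT).

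Nfatc2 and Nfatc3 encode the NFAT1 and NFAT4 proteins, which are present in resting T cells. Nfatc2 (ENSMUSG00000027544, chromosome 2, 168476410 to 168601657, minus strand) read 132, 127 and 132 CPM in WT with DMSO and 126, 128 and 126 with CMA. The 2 ranges overlapped, with a log2 fold change of -0.04 (95% interval -0.13 to 0.05, adjusted p = 0.43, edgeR). STINGgt/gt T cells gave Nfatc2 values of 118, 126 and 129 CPM with DMSO and 116, 110 and 118 with CMA, a change of -0.13 (adjusted p = 0.217, edgeR). Nfatc3 (ENSMUSG00000031902, chromosome 8, 106059603 to 106130537, plus strand) read 246, 215 and 291 CPM in WT with DMSO and 251, 255 and 263 with CMA. Its DMSO libraries spread more than those of any other WT member, with a coefficient of variation of 15.1%, and spanned the CMA values. The log2 fold change was 0.03 (95% interval -0.13 to 0.19, adjusted p = 0.732, edgeR). It was -0.07 without WT DMSO replicate 2, and 0.16 (adjusted p = 0.0103, edgeR) without WT DMSO replicate 3. Exons of Nfatc3 overlap those of Esrp2 on the other strand, and the strand setting of the counting was not stated. Nfatc3 values in STINGgt/gt T cells were 216, 225 and 228 CPM with DMSO and 222, 239 and 233 with CMA, a change of 0.05 (adjusted p = 0.819, edgeR).

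Per kb of exon, the NFAT genes together reached 62.0 ± 4.64 CPM in WT under DMSO and 54.2 ± 0.626 under CMA (SD, n = 3). The summed level in STINGgt/gt T cells was 68.5 ± 3.24 CPM per kb under DMSO and 70.9 ± 1.98 under CMA (SD, n = 3). Nfatc1 made up 45.7% of that sum in WT with DMSO, 37.6% in WT with CMA and 55.0% to 56.9% in STINGgt/gt T cells. Thus Nfatc3, at 40.3%, held the largest share of the NFAT sum in WT with CMA, and Nfatc1 held it in the other groups.

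Egr1 and Egr2 fell in WT T cells, and Egr3 passed the test by a small margin. Egr2 (ENSMUSG00000037868, chromosome 10, 67535475 to 67542188, plus strand) encodes a repressor of T cell activation genes that is required for anergy. It read 55.1, 52.1 and 54.4 CPM in WT with DMSO and 11.7, 12.3 and 10.5 with CMA. The CMA libraries lay far below the DMSO libraries, at a 4.68-fold lower level (log2 fold change -2.23, standard error 0.0694, adjusted p = 6.27e-14, edgeR). That change lay at the 1.36 percentile of all genes tested, counted from the most lowered gene. Egr2 values in STINGgt/gt T cells were 53.3, 52.5 and 59.9 CPM with DMSO and 68.2, 74.6 and 75.1 with CMA. Here the CMA libraries were all above the DMSO libraries, and the direction was opposite to that in WT (log2 fold change 0.40, standard error 0.0588, adjusted p = 0.00271, edgeR). The difference of the effects was -2.62 (95% interval -2.82 to -2.43, adjusted p = 9.72e-13, edgeR), and over the alternative analyses the STINGgt/gt change lay between 0.34 and 0.46.

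Egr1 (ENSMUSG00000038418, chromosome 18, 34859823 to 34864984, plus strand) encodes the immediate early factor that serum and receptor signals induce first. In WT T cells it read 163, 163 and 151 CPM with DMSO and 60.9, 65.8 and 57.6 with CMA. The groups stood far apart, 2.58-fold lower with CMA (log2 fold change -1.37, standard error 0.0575, adjusted p = 2.65e-12, edgeR). The STINGgt/gt libraries gave 195, 206 and 218 CPM with DMSO and 217, 230 and 229 with CMA, and the ranges overlapped at their edge. That change of 0.13 did not pass (95% interval 0.01 to 0.24, adjusted p = 0.33, edgeR). The WT and STINGgt/gt responses of Egr1 differed by -1.50 (adjusted p = 1.45e-10, edgeR).

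Egr3 (ENSMUSG00000033730, chromosome 14, 70077445 to 70080157, plus strand), which acts alongside Egr2 in restraining T cells, was at low levels and less certain. It read 14, 12.5 and 14.8 CPM in WT with DMSO and 11.7, 12.1 and 10.8 with CMA. The CMA values were all below the DMSO values by a small margin (log2 fold change -0.26, standard error 0.111, adjusted p = 0.0451, edgeR). The adjusted p ran from 0.00575 to 0.178 over 22 alternative analyses (edgeR, DESeq2 or limma). The call failed in 14 of them, of which 2 only set a stricter threshold on the same fit, and among the others were the fits without WT DMSO replicate 1 or 3 and without WT CMA replicate 1 or 3. The STINGgt/gt values of Egr3 were 23.2, 27.7 and 32.5 CPM with DMSO and 34.6, 35.5 and 39.0 with CMA. All CMA libraries were above the DMSO libraries, but the adjusted p of 0.05001 missed the threshold (log2 fold change 0.39, standard error 0.0929, edgeR), and 9 of 22 alternatives passed it, with adjusted p between 1.74e-06 and 0.235. The difference of the CMA effects on Egr3 did pass, at -0.65 (95% interval -0.96 to -0.34, adjusted p = 0.00105, edgeR).

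Per kb of exon, the summed EGR level of WT T cells was 54.4 ± 1.40 CPM under DMSO and 19.7 ± 1.32 under CMA (SD, n = 3). The STINGgt/gt sum was 68.6 ± 4.66 CPM per kb under DMSO and 79.9 ± 3.16 under CMA (SD, n = 3). Egr1 held 62.9% to 69.6% of the sum in every group. The share of Egr2 was 29.1% in WT with DMSO and 17.2% with CMA, and that of Egr3 was 5.74% and 13.3%.

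Nr4a1, Nr4a2 and Nr4a3 rose with CMA in WT T cells, by different amounts, and their promoters are shown first, taken from RefSeq's GRCm38.p6 windows from 250 bases before to 50 bases after the transcription start. Of the 10 members, 6 had an entry (Nfatc2, Nfatc3, Egr2, Nr4a1, Nr4a2 and Nr4a3), while Nfatc1, Egr1, Egr3 and Cd69 had none. The stretches below lie upstream of the RefSeq start, hold no base of an exon annotated in GENCODE M21 and run 5′ to 3′ on the gene's strand. The GENCODE span of Nr4a1 begins further upstream, at 101254269, so its stretch lies within that span. Capitals mark TGACG or its complement CGTCA, the core of the cAMP response element (CRE) that CREB proteins bind, and GCGNGGGCG or its complement, the EGR site. They are chr15:101266596-101266845 on the plus strand for Nr4a1, chr2:57124004-57124253 on the minus strand for Nr4a2, and chr4:48045055-48045152 on the plus strand for Nr4a3.
Nr4a1: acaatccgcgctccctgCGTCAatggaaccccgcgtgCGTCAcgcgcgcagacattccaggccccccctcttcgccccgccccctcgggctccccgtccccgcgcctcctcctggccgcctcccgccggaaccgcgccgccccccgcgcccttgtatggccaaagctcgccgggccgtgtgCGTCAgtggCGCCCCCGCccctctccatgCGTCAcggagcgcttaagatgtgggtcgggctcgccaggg
Nr4a2: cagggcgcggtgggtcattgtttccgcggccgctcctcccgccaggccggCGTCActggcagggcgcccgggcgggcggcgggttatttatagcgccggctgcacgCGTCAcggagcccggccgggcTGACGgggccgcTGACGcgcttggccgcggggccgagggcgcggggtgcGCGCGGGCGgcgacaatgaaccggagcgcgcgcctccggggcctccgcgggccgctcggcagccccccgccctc
Nr4a3: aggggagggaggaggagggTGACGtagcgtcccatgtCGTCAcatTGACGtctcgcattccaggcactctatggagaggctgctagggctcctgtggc

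Each of the 3 NR4A windows held 4 CRE cores. Their first bases lay 233, 213, 69 and 40 bases before the start in Nr4a1, 200, 144, 123 and 111 in Nr4a2, and 231, 213, 205 and 147 in Nr4a3, the last of these inside an annotated exon and so not printed. Of 32544 distinct promoter windows of 300 bases, 20.9% held at least 1 core on either strand and 0.234% held at least 4. That minimum of 4 equals the count in the 3 NR4A windows, so the share is a description and not a test. The windows of Nfatc2, Nfatc3 and Egr2 held no CRE core. The EGR site occurred once in Nr4a1, 60 bases before the start, and once in Nr4a2, 74 bases before it, and in 5.6% of all windows. The NFAT core GGAAA occurred 3 times in Nfatc2 and once in Nr4a2 and in 61.5% of all windows. None of the 6 windows held the full cAMP response element TGACGTCA (1.8% of all windows), which would contain the core, the serum response CArG box (1.64%), the NR4A site AAAGGTCA (1.52%) or the AP-1 site TGACTCA (5.19%), all searched on both strands. A match describes the letters in the window and not binding.

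**Figure D3:**
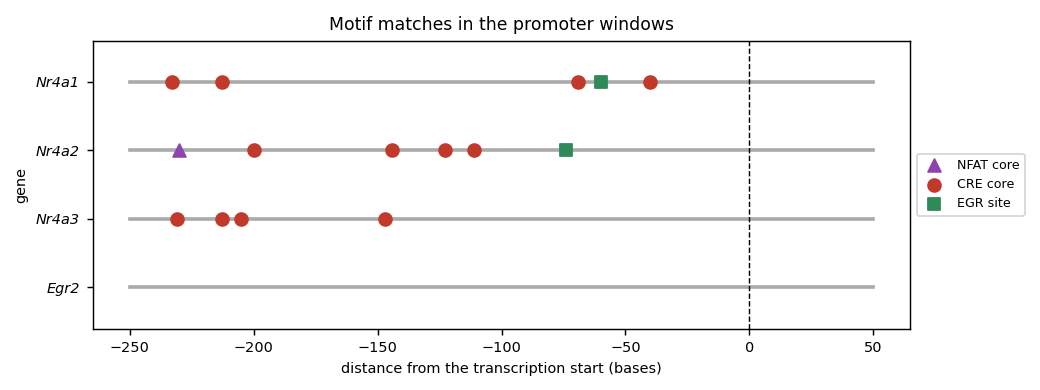
Matches to 3 motifs in the promoter windows of the NR4A genes and Egr2, by the distance in bases of the first matched base from the transcription start (horizontal axis, dashed line at the start). Each NR4A window holds 4 CRE cores, and the Egr2 window holds none of the 3 motifs.

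Nr4a2 (ENSMUSG00000026826, chromosome 2, 57106830 to 57124003, minus strand) encodes NURR1. In WT T cells it read 38.7, 35.7 and 34.8 CPM with DMSO and 69.4, 64.1 and 63.4 with CMA. The CMA libraries lay well above the DMSO libraries, 1.81-fold higher (log2 fold change 0.85, standard error 0.0555, adjusted p = 7.21e-10, edgeR). The STINGgt/gt values of Nr4a2 were 35.2, 34.6 and 37.7 CPM with DMSO and 39.3, 39.7 and 42.4 with CMA. These groups did not overlap either, yet the change of 0.18 missed the threshold (95% interval 0.06 to 0.29, adjusted p = 0.161, edgeR). The effect was larger in WT by 0.68 (adjusted p = 1.71e-06, edgeR).

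Nr4a3 (ENSMUSG00000028341, chromosome 4, 48045153 to 48086447, plus strand) encodes NOR1, which is linked with Nr4a1 to restraint of T cell responses. It read 150, 133 and 163 CPM in WT with DMSO and 243, 250 and 247 with CMA. The groups were clearly apart, with a 1.66-fold rise (log2 fold change 0.73, standard error 0.0762, adjusted p = 2.66e-07, edgeR). STINGgt/gt T cells gave 321, 351 and 395 CPM with DMSO and 380, 419 and 433 with CMA. The lowest CMA library lay inside the DMSO range, and the change of 0.21 did not pass (95% interval 0.05 to 0.37, adjusted p = 0.226, edgeR). The effect was larger in WT by 0.52 (adjusted p = 5.05e-04, edgeR). Each WT library with CMA lay below each STINGgt/gt library with DMSO.

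Nr4a1 (ENSMUSG00000023034, chromosome 15, 101266846 to 101274792, plus strand) encodes NUR77, the usual reporter of receptor signal strength and also a mediator of thymocyte death. It rose by a small amount in both genotypes. It read 176, 185 and 174 CPM in WT with DMSO and 209, 222 and 209 with CMA. The CMA libraries lay above the DMSO libraries (log2 fold change 0.26, standard error 0.0493, adjusted p = 1.86e-04, edgeR). The STINGgt/gt libraries read 229, 226 and 252 CPM with DMSO and 282, 268 and 282 with CMA, again without overlap (log2 fold change 0.24, standard error 0.0488, adjusted p = 0.0242, edgeR). The STINGgt/gt call was lost without STINGgt/gt DMSO replicate 1 or 2 and without any one of the 3 STINGgt/gt CMA libraries, where adjusted p rose to at most 0.17 (edgeR). The effects differed by 0.02 with a 95% interval from -0.12 to 0.17 (adjusted p = 0.785, edgeR), so a difference of up to 0.17 in favour of WT or 0.12 in favour of STINGgt/gt lies within the error.

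Per kb of exon, the summed NR4A level of WT T cells was 84.6 ± 0.831 CPM under DMSO and 118 ± 2.35 under CMA (SD, n = 3). The STINGgt/gt sum was 135 ± 10.3 CPM per kb under DMSO and 158 ± 4.99 under CMA (SD, n = 3). Nr4a1 held 49.6% to 60.0% of the sum and Nr4a2 6.32% to 13.7%. The Nr4a2 share was highest in WT with CMA.

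Cd69 (ENSMUSG00000030156, chromosome 6, 129267324 to 129275369, minus strand) was the member that rose most. In WT T cells it read 101, 114 and 98.4 CPM with DMSO and 212, 209 and 221 with CMA. The groups did not overlap and lay 2.05-fold apart (log2 fold change 1.03, standard error 0.0544, adjusted p = 4.86e-11, edgeR). STINGgt/gt T cells read 149, 140 and 143 CPM with DMSO and 150, 160 and 152 with CMA. The ranges just failed to touch, and the change of 0.10 did not pass (95% interval -0.02 to 0.21, adjusted p = 0.473, edgeR). The effect was larger in WT by 0.94 (95% interval 0.77 to 1.10, adjusted p = 2.59e-08, edgeR). S1pr1, which encodes the exit receptor that CD69 retains, rose as well, from 28.4 ± 0.852 to 38.4 ± 2.71 CPM in WT (SD, n = 3, log2 fold change 0.44, adjusted p = 2.73e-06, edgeR).

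Across the members, the CMA effect was not the same in the genotypes for 7 of 10 genes, lower in WT for Nfatc1, Egr1, Egr2 and Egr3 and higher in WT for Nr4a2, Nr4a3 and Cd69 (edgeR). All genes tested gave 58.8%. The difference reached 2-fold for Egr1 and Egr2, both lower in WT, and for 16.0% of all genes. The median difference was -0.032 over all genes and within 0.01 of zero over the members. For CMA in STINGgt/gt, 7 members had an unadjusted p under 0.05 in edgeR's test, against 13% of all genes, and 2 passed after adjustment. The CMA and DMSO libraries of 6 members did not overlap there, against 23.1% of all genes, and the median log2 change was 0.15 over the members and 0.001 over all genes. The count of members called in STINGgt/gt was the least settled, from 1 to 5 over the alternative analyses without a minimum fold. Marker genes moved with CMA in WT T cells as well. Of 8 B cell markers 5 rose and 1 fell (median log2 change 0.23, edgeR), and of 11 T cell markers 2 rose and 5 fell (median -0.12), their sum going from 3630 to 3790 CPM with DMSO to 3270 to 3400 CPM with CMA. Of 7 myeloid markers tested 1 rose and 3 fell (median -0.07), and of 6 markers of CD8 and natural killer cells 1 rose and 3 fell (median -0.48). Their part in the members' values was not tested.

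The genotypes also differed before any agonist was given. With DMSO, 6 of 10 members were lower in WT than in STINGgt/gt T cells and none was higher (edgeR), when 42.7% of all genes differed (22.9% higher and 19.8% lower in WT). The median difference was -0.39 over the members and -0.002 over all genes. The WT and STINGgt/gt libraries with DMSO did not overlap for 6 members, against 47.9% of all genes. Egr3 and Nr4a3 reached 2-fold, as did 7.28% of all genes. Nr4a3 differed most, 2.39-fold lower in WT (log2 difference -1.26, standard error 0.0766, adjusted p = 1.72e-09, edgeR), at 133 to 163 against 321 to 395 CPM. Egr3 was 2.01-fold lower in WT (log2 difference -1.01, standard error 0.102, adjusted p = 7.86e-07, edgeR). Cd69 was lower by 0.46 (adjusted p = 4.39e-06), Nfatc1 by 0.41 (adjusted p = 5.00e-06), Nr4a1 by 0.40 (adjusted p = 5.87e-06) and Egr1 by 0.38 (adjusted p = 3.95e-05, all edgeR). Egr2 and Nr4a2 stood at about the same level in both genotypes, with differences of -0.03 (95% interval -0.16 to 0.09, adjusted p = 0.682) and 0.02 (95% interval -0.10 to 0.14, adjusted p = 0.794, edgeR).

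Markers of other cells differed between the genotypes too. With DMSO, all 8 B cell markers were higher in WT (median log2 difference 1.16, edgeR), as were all 7 myeloid markers tested (median 1.80) while of 6 markers of CD8 and natural killer cells 4 were higher and 1 lower (median 0.70). The T cell markers split into 2 higher and 2 lower of 11. Their part in the members' differences was not tested. The cells of each genotype came from different mice, so genotype and any difference in cell isolation cannot be told apart.

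**Figure D4:**
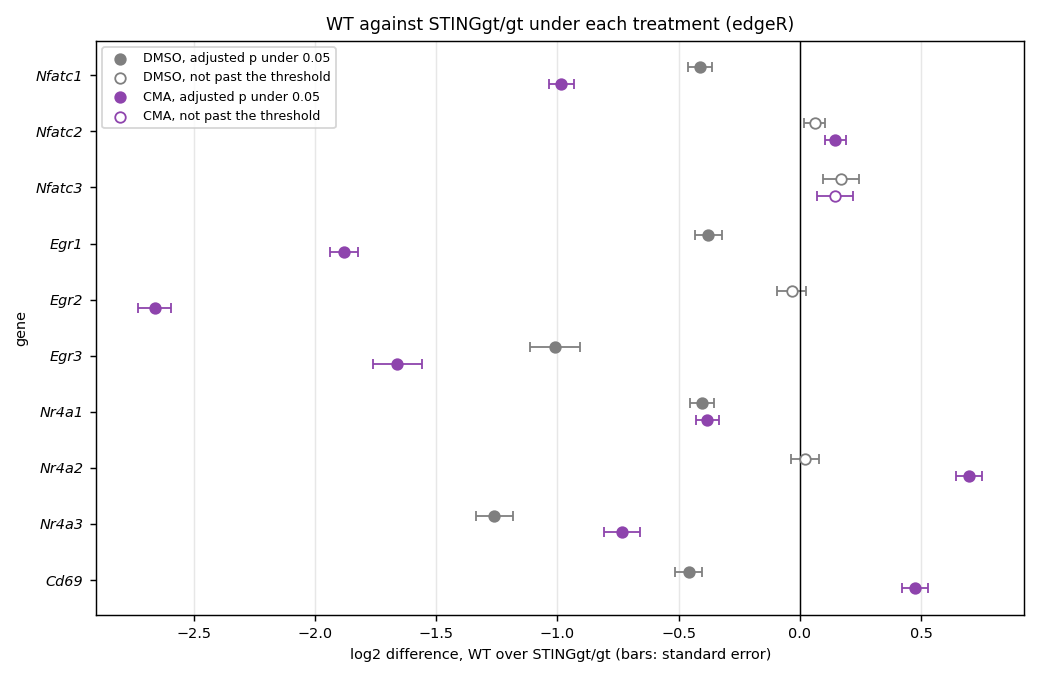
Log2 difference of WT over STINGgt/gt T cells (horizontal axis) for each gene with DMSO and with CMA, from edgeR's model with bars for the standard error. Filled points passed an adjusted p of 0.05. With DMSO the filled points all lie below 0, from -1.26 for Nr4a3 to -0.38 for Egr1, and with CMA they run from -2.66 for Egr2 to 0.70 for Nr4a2.

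With CMA, 9 of 10 members differed between genotypes, 3 higher and 6 lower in WT (edgeR), where 73.5% of all genes differed (37.0% higher and 36.5% lower). The libraries of the genotypes did not overlap for all 10 members, against 78.9% of all genes. Egr1, Egr2 and Egr3, 3 members, reached 2-fold, as did 21.3% of all genes. The median difference was -0.56 over the members and -0.005 over all genes. Egr2 was 6.31-fold lower in WT, at 10.5 to 12.3 against 68.2 to 75.1 CPM (log2 difference -2.66, adjusted p = 4.66e-15, edgeR). Egr1 was 3.67-fold and Egr3 3.16-fold lower (log2 differences -1.88, adjusted p = 3.89e-14, and -1.66, adjusted p = 2.54e-10, edgeR). Cd69 was lower in WT with DMSO and higher in WT with CMA, with a log2 difference of 0.48 (adjusted p = 4.95e-07, edgeR). Nfatc2 was higher in WT by 0.15 (adjusted p = 0.00683, edgeR), a call lost with plain library-size scaling (adjusted p = 0.0618). Nfatc3, the member not called, differed by 0.15 (adjusted p = 0.0907, edgeR) and passed as higher in WT in 5 of 21 alternative analyses. All 8 B cell markers were again higher in WT (median 1.57), as were 6 of 7 myeloid markers tested (median 1.39). Of 11 T cell markers 1 was higher and 6 were lower (median -0.17), and of 6 markers of CD8 and natural killer cells 3 were higher and 3 lower (median 0.13). Their part was not tested.

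The members differed in the order of the 4 groups, and overlap is given here between neighbours in that order. Nfatc1, Egr1, Egr2 and Egr3 were highest in STINGgt/gt with CMA and lowest in WT with CMA, with 1.98-fold, 3.67-fold, 6.31-fold and 3.16-fold between these means. For Nfatc1 and Egr1 the 2 STINGgt/gt groups overlapped, for Egr2 the 2 DMSO groups overlapped, and for Egr3 no neighbouring groups did. Nr4a1 and Nr4a3 were highest in STINGgt/gt with CMA and lowest in WT with DMSO, spanning 1.56-fold and 2.76-fold, and only the STINGgt/gt groups of Nr4a3 overlapped. Nr4a2 and Cd69 were both highest in WT with CMA but lowest in different groups, STINGgt/gt with DMSO for Nr4a2 and WT with DMSO for Cd69, spanning 1.83-fold and 2.05-fold, and only the DMSO groups of Nr4a2 overlapped. Nfatc3 was highest in WT with CMA and lowest in STINGgt/gt with DMSO, spanning 1.15-fold with every pair of neighbouring groups overlapping. Nfatc2 was highest in WT with DMSO and lowest in STINGgt/gt with CMA, spanning 1.14-fold, and of its neighbouring groups only the STINGgt/gt ones did not overlap.

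Genes of the surrounding pathways were read from fixed lists, which were also chosen with earlier results of these data known. The counts of each list stand against 33.0% higher and 37.4% lower among all genes with CMA in WT (median log2 change -0.04), and 0.398% and 0.92% in STINGgt/gt T cells, and no list was tested against the other genes. The list of calcium entry and calcineurin genes had 17 tested members, of which 5 rose and 10 fell with CMA in WT (median log2 change -0.24, edgeR), and none passed in STINGgt/gt T cells. The catalytic subunit genes of calcineurin all fell, led by Ppp3cc from 116 ± 2.46 to 61.7 ± 1.77 CPM (SD, n = 3, log2 fold change -0.91, adjusted p = 1.74e-11, edgeR), with Ppp3ca at -0.31 and Ppp3cb at -0.29. The pore gene of the calcium channel, Orai1, rose from 65.3 ± 5.98 to 122 ± 6.97 CPM (SD, n = 3, log2 fold change 0.90, adjusted p = 2.52e-09, edgeR). Stim2, a calcium sensor of the endoplasmic reticulum, was lower in WT with DMSO by 0.50 (adjusted p = 5.11e-07, edgeR) and fell further with CMA by 0.24.

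Of 16 tested regulators of calcineurin and NFAT, 5 rose and 1 fell in WT (median 0.03, edgeR) and none passed in STINGgt/gt T cells. Rcan3, which encodes a calcineurin inhibitor, fell from 121 ± 6.22 to 74.6 ± 3.51 CPM (SD, n = 3, log2 fold change -0.69, adjusted p = 1.95e-09, edgeR). The NFAT kinase Dyrk2 rose from 17.8 ± 1.32 to 28.2 ± 0.932 CPM (SD, n = 3, log2 fold change 0.66, adjusted p = 2.18e-07, edgeR). Batf, an AP-1 family partner, was higher in WT with DMSO by 0.91 (adjusted p = 1.44e-08, edgeR), and its CMA change of -0.09 did not pass (adjusted p = 0.197).

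Further family members and partners gave 3 higher and 3 lower of 7 tested in WT (median -0.09, edgeR), the lower ones being Egr4, Klf10 and Nab2, and 1, Nab2, was higher in STINGgt/gt T cells. Only 1 was lower when the groups compared were fitted alone and when at least 10 counts were asked of every library. Nfat5, the NFAT relative that responds to osmotic stress and does not need calcineurin, rose from 284 ± 56.4 to 623 ± 23.2 CPM in WT (SD, n = 3, log2 fold change 1.13, adjusted p = 4.78e-08, edgeR). Egr4 was near absence in WT, with at most 13 reads per library with DMSO and at most 1 with CMA, so no fold is given, and it stood at 1.40 ± 0.147 and 1.31 ± 0.0785 CPM in STINGgt/gt T cells (SD, n = 3). Nab1 and Nab2 encode corepressors that bind EGR proteins. Nab1 rose by 0.44 in WT (adjusted p = 2.51e-06), while Nab2 had changes of -0.09 in WT (adjusted p = 0.0423) and 0.17 in STINGgt/gt (adjusted p = 0.0359, edgeR), both calls lost in most alternatives. Rxra, which encodes a partner receptor of NUR77 and NURR1, had a DMSO level of 4.82 ± 0.146 CPM in WT and of 12.1 ± 0.894 CPM in STINGgt/gt (SD, n = 3, log2 difference -1.33, adjusted p = 2.07e-08, edgeR), and its CMA change in WT was -0.16 (adjusted p = 0.235). Rxrb rose by 0.16 (adjusted p = 0.0232) and the zinc finger gene Klf10 fell by 0.33 in WT (adjusted p = 0.00102, edgeR). Nfatc4, Rxrg and Wt1 were too low to test, at no more than 1 read per library in the WT groups.

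The transcription factors that drive EGR and NR4A genes moved both ways. Of 15 serum response and CREB factors, 8 rose and 4 fell in WT (median 0.13, edgeR), and none passed in STINGgt/gt T cells. Elk4, a serum response cofactor, rose from 68.9 ± 11.3 to 131 ± 1.01 CPM (SD, n = 3, log2 fold change 0.93, adjusted p = 7.84e-08, edgeR), whereas Srf itself fell by 0.47. Mef2a, a calcium-responsive factor, rose by 0.64 (adjusted p = 2.00e-07, edgeR). All 3 CREB coactivator genes rose, Crtc1 by 0.30, Crtc2 by 0.49 and Crtc3 by 0.20. Crem, which encodes activating and inhibitory CREB relatives, was higher in WT with DMSO by 1.01 (adjusted p = 3.62e-11, edgeR) and rose with CMA by 0.23.

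Of 18 other immediate early genes, 11 rose and 3 fell in WT (median 0.46, edgeR), where 33.0% of all genes rose and 37.4% fell, and 1, the stress gene Ier3, fell in STINGgt/gt T cells. Klf4, a factor of quiescence, went from 7.19 ± 0.314 to 45.4 ± 0.478 CPM in WT (SD, n = 3, log2 fold change 2.66, adjusted p = 5.72e-15, edgeR). Gadd45b, a stress and NF-κB response gene, went from 16.3 ± 1.29 to 101 ± 3.54 CPM (SD, n = 3, log2 fold change 2.64, adjusted p = 2.68e-15, edgeR). Zfp36, which encodes an mRNA decay factor, was higher in WT with DMSO by 0.61 (adjusted p = 5.84e-08, edgeR) and fell with CMA by 0.14. Of 12 MAP kinase feedback genes, 3 rose and 8 fell in WT (median -0.33, edgeR) and none passed in STINGgt/gt T cells. The ERK phosphatase Dusp6 fell from 38.8 ± 1.71 to 15.6 ± 1.19 CPM (SD, n = 3, log2 fold change -1.31, adjusted p = 1.98e-11, edgeR). Its relative Dusp4 rose from 118 ± 6.61 to 207 ± 15 CPM (SD, n = 3, log2 fold change 0.82, adjusted p = 1.25e-09, edgeR).

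Genes known as NFAT or EGR targets split, with 6 higher and 8 lower of 21 tested in WT (median -0.03, edgeR) and 1 higher in STINGgt/gt T cells. The lower count in WT was 3 with at least 10 counts in every library and 4 with only the groups compared. The cytokine gene Il2 rose in both genotypes, from 3.40 ± 0.297 to 20.9 ± 2.53 CPM in WT (SD, n = 3, log2 fold change 2.63, adjusted p = 1.22e-11, edgeR) and from 5.50 ± 0.581 to 9.74 ± 1.33 CPM in STINGgt/gt (SD, n = 3, log2 fold change 0.82, adjusted p = 0.00243, edgeR). The helper ligand Cd40lg fell from 47.3 ± 3.39 to 20.4 ± 1.36 CPM in WT (SD, n = 3, log2 fold change -1.22, adjusted p = 1.16e-10, edgeR). The anergy ligase gene Rnf128 fell by 2.13 in WT (adjusted p = 7.09e-06, edgeR), at low counts of at most 62 reads with DMSO and 15 with CMA. Other ligase genes of this list did not fall. Cblb rose by 0.53 in WT (adjusted p = 1.61e-07), and the change of 0.15 in Itch did not pass (adjusted p = 0.0677, edgeR). The DMSO level of the cytokine gene Il21 was 80.8 ± 8.74 CPM for WT but 2.46 ± 0.139 CPM for STINGgt/gt (SD, n = 3, log2 difference 5.04, adjusted p = 2.15e-13, edgeR), and its CMA change in WT was 0.17 (adjusted p = 0.108). Of 15 activation and retention surface genes, 6 rose and 4 fell in WT (median 0.09, edgeR). Cd83, an activation marker, rose from 90.4 ± 3.32 to 303 ± 5.40 CPM (SD, n = 3, log2 fold change 1.75, adjusted p = 1.10e-14, edgeR).

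**Figure D5:**
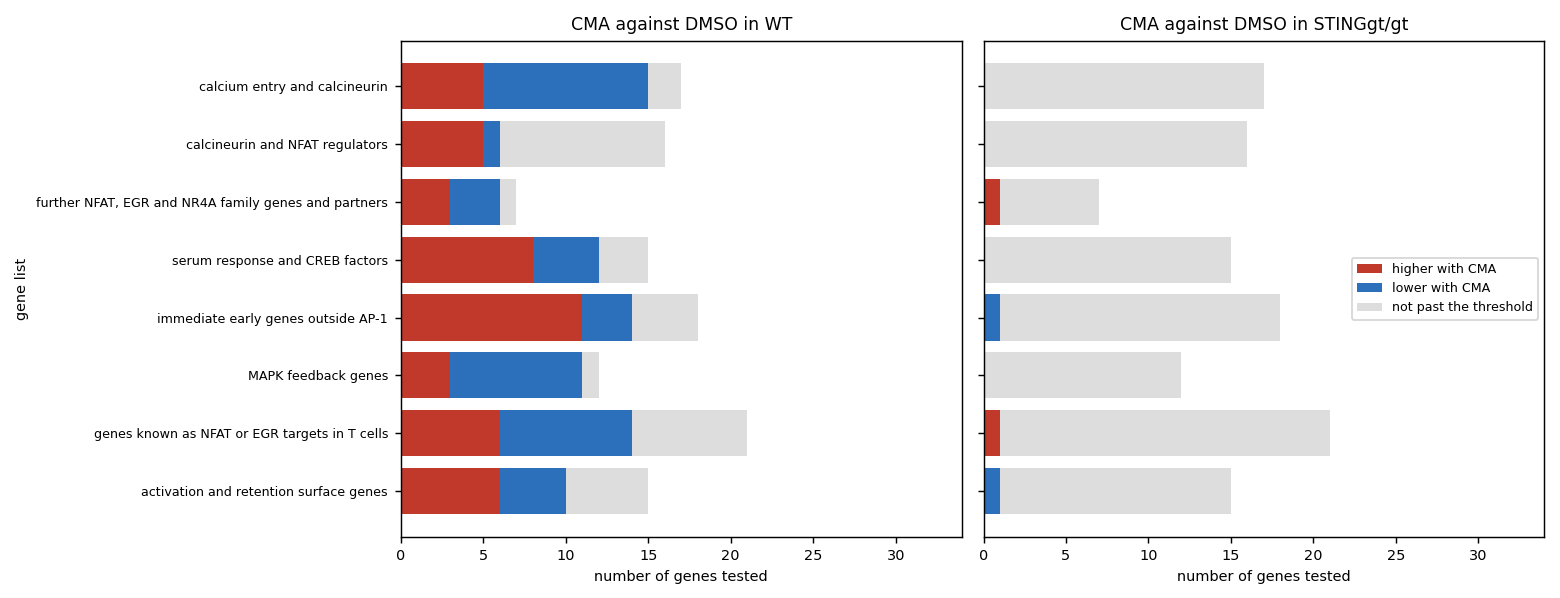
Number of genes tested in each list (horizontal axis) that were higher, lower or not past the threshold with CMA, in WT and in STINGgt/gt T cells (edgeR, adjusted p under 0.05). In WT 70.4% of all genes passed and in STINGgt/gt 1.32%, and in WT 11 of 18 immediate early genes were higher, 10 of 17 calcium entry and calcineurin genes lower and 8 of 12 MAPK feedback genes lower.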

How the data were processed

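RNA from 12 libraries was analysed, 3 for each genotype and treatment, grouped by their labels. Libraries were made with a stranded mRNA kit and read from 1 end. Per the submitters' processing notes the tools included cutadapt 1.3, STAR 2.4.0f1, HTSeq 0.6.1 and RSEM 1.2.16 with GRCm38. The strand setting and the annotation release are not given in the sources used here. The authors deposited raw read counts for 38924 gene IDs and a log2 table of 11921 genes, which equals log2 of the count plus 0.5 minus a constant per library (largest residual 5.33e-14). Lines that name no gene (not unique 27.8% to 30.3%, outside genes 4.86% to 7.16%, ambiguous 0.594% to 0.635% of entries) entered neither library sizes nor tests.

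The deposited counts were tested with edgeR 4.0.16 in R 4.3.3 (glmQLFit, glmQLFTest, TMM scaling, filterByExpr by group, 4 group means, no block), with Benjamini-Hochberg adjustment over 13811 genes and a threshold of 0.05. Every fold change comes from this model. Exon lengths came from GENCODE M21. The alternatives were library-size scaling, DESeq2 1.42.0, limma-voom and limma 3.58.1 on the deposited log2 table, no filter, a minimum of 10 counts per library, fits of the compared groups alone, a threshold of 0.01, a 2-fold minimum, a replicate block and leaving out each of the 12 libraries. The members had at least 334 reads in each library, so precision is set by 3 libraries per group, for which an exact two-sided permutation test cannot go below 0.1. Replicates differed beyond sampling noise (chi-square per degree of freedom 2.63 to 29.9). They differed most in WT with DMSO, at 9.98 to 29.9 per pair, against 2.63 to 6.82 in the other groups. Genes named are all members, from each list the 2 with the smallest p for CMA in WT and the 1 with the smallest p between genotypes with DMSO, and all further family members. A gene that the rule covers is not reported here. Ppp3ca, Ppp3cb, Srf, Crtc1, Crtc2, Crtc3, Ier3, Rnf128, Cblb and Itch lie outside this rule and were named after their values were seen. Members and lists were chosen with earlier results of these data known.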

Additional observations from a re-analysis of the deposited data

Results flagged for a closer look

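For 7 members the effect of CMA differed between the genotypes in edgeR's test of the difference. On the log2 scale the effect in WT minus that in STINGgt/gt T cells was -2.62 for Egr2, -1.50 for Egr1, -0.65 for Egr3, -0.57 for Nfatc1, 0.52 for Nr4a3, 0.68 for Nr4a2 and 0.94 for Cd69. Egr2 moved in opposite directions in the genotypes and passed in both, while Egr3 moved in opposite directions without passing in STINGgt/gt T cells. Such a difference was found for 58.8% of all genes tested.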

How the results depend on the processing

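Every alternative kept the direction and the side of the threshold for Egr1, Egr2 and Cd69 with CMA in WT, for the Egr1 and Egr2 effect differences, and for Egr3 and Nr4a3 between genotypes with DMSO. A 2-fold minimum left 1 member higher and 2 lower with CMA in WT, 0 higher in STINGgt/gt, 0 higher and 2 lower for the effect difference, 2 lower in WT with DMSO, and 0 higher and 3 lower in WT with CMA. Members higher with CMA in STINGgt/gt numbered 4 without a filter on low counts, 5 with only the groups compared and 1 at an adjusted p under 0.01, against 2, and ran from 1 to 3 when single libraries were left out. Over all genes the same counts were 176, 268 and 14, against 55, and ran from 14 to 180. Members higher in WT with DMSO numbered 1 (Nfatc3) without the filter and 0 to 1 when single libraries were left out. Over all genes these counts were 3056 without the filter, against 3160, and ran from 2647 to 3281 when single libraries were left out. In the pathway lists with none called in a given direction in STINGgt/gt, up to 2 genes were called under some alternatives. The cause of these moves was not tested, except that a stricter threshold or fewer samples changes a count by its construction.

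Directions turned for values near 0. The effect difference of Nfatc3 was 0.04 in the deposited log2 table and 0.01 with 10 counts in every library. When single libraries were left out, the change of Nfatc3 with CMA in WT ran from -0.07 to 0.16, and the effect differences from -0.13 to 0.11 for Nfatc3 and from -0.02 to 0.06 for Nr4a1. Between genotypes with DMSO the ranges were -0.08 to 0.02 for Egr2, -0.03 to 0.05 for Nr4a2 and -0.01 to 0.07 for Dusp4, and with CMA in STINGgt/gt they were -0.01 to 0.05 for Dusp4 and -0.09 to 0.02 for Klf4. Rxrb between genotypes with CMA turned to -0.01 with library-size scaling. Scaling alternatives moved the median of all genes by no more than 0.0502.

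Replicate numbers were shared between treatments, but same-numbered libraries deviated together only weakly (correlations 0.00195 to 0.132), and no label says what the number stands for, so they were not taken as pairs. The first digit of the deposited sample names was shared in 5 of the 6 number pairs, but not by the STINGgt/gt libraries numbered 2. With a replicate block within each genotype, 5 members and 130 of all genes were higher with CMA in STINGgt/gt, among those members Nr4a2 (adjusted p = 0.0494) and Nr4a3 (adjusted p = 0.0379, edgeR). A further fit used the block without those STINGgt/gt libraries. It was chosen after seeing the data and also has fewer samples. In STINGgt/gt 1 member (Egr2) and 11 of all genes were then higher with CMA, and Nr4a1 did not pass (adjusted p = 0.104, edgeR). The counts of members stayed at 4 higher and 4 lower in WT, where 4618 of all genes were higher and 5222 lower. For the effect difference they stayed at 3 higher and 4 lower, where 3517 of all genes were higher and 4093 lower.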

Other observations

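The genes whose log2 CPM followed each member most closely over the 12 libraries were listed as a description. These libraries fall into 4 groups, so a high Pearson correlation mainly says that group means were ordered alike. The 3 genes most like Egr1 were Slc19a1 (r = 0.998), Smyd5 (0.997) and Tfap4 (0.997), where Slc19a1, a folate carrier gene, stood at 53.6, 21.1, 71.8 and 79.1 mean CPM in WT with DMSO, WT with CMA, STINGgt/gt with DMSO and STINGgt/gt with CMA. Egr2 was followed by Ptk7 (0.996), Mkrn2 (0.994) and Man2a2 (0.993), Egr3 by Tnik (0.989), Adat1 (0.988) and Pacsin1 (0.988), and Nfatc1 by Polr1b (0.993), Pitpnm2 (0.993) and Ikbkap (0.992). Cd69 was followed by Kcnk10 (0.991), the interferon-inducible gene Gbp4 (0.991) and Lad1 (0.99), and Gbp4 stood at 129, 403, 201 and 237 mean CPM in the same order of groups. Nr4a2 was followed by Inpp5e (0.994), Asap2 (0.991) and Trmt1l (0.988), Nr4a3 by Zfp280b (0.993), Pole (0.989) and Tbc1d4 (0.986), and Nr4a1 by Tmem66 (0.971), Crtc1 (0.963) and Pou2f2 (0.963). Nfatc3 was followed by Hipk1 (0.971), Trak2 (0.958) and Arl5a (0.954), and Nfatc2, which varied least, by Gm26924 (0.895), Flywch1 (0.883) and Inpp5d (0.881).

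Single libraries stood high over several members at once. Replicate 3 of the STINGgt/gt group with DMSO held the highest value of its group for 9 of 10 members, all but Cd69. Replicate 3 of the STINGgt/gt group with CMA did so for 7 members, and replicate 1 of that group was lowest for 8. In WT T cells with CMA, replicate 2 was highest for 7 members.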
